A study of Danio rerio with 2 samples.

Results

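The genes described here are those whose name on a zebrafish (Danio rerio) array marks them as parts of the cell cycle or DNA replication machinery. They were chosen by name alone: A, B, D and E cyclins (ccn), the kinases cdk1 to cdk7 and their prefixed relatives, mcm, orc, every cdc gene with a number, plk1 to plk4, aurk, bub and mad2 genes, subunits of DNA polymerases alpha, delta and epsilon, rfc1 to rfc5, gmnn and pcna. The pattern matched 50 of the 36305 distinct gene names that are not controls, printed as 85 spots. Of these 50 names, 42 are current symbols. The other 8 are older names: cdc2 is now cdk1, orc1l, orc3l, orc5l and orc6l are now orc1, orc3, orc5 and orc6, cdc14a is now cdc14b, plk2 is now plk2b and cdc42ep4 is now cdc42ep4a. The array names are used below.

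Before a cell divides, the origin recognition complex marks the places where DNA copying starts and loads the MCM helicase there, a step that geminin (gmnn) blocks once copying has begun. At the fork, polymerases copy both strands while held by the sliding clamp PCNA, which the RFC clamp loader opens and closes. Cyclins bound to kinases drive each stage, and the spindle checkpoint and the anaphase-promoting complex control the separation of chromosomes and the way out of mitosis. In the zebrafish embryo the first divisions are fast and run on transcripts stored in the egg, and later the cycle slows as cells take on their fates.

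The study injected ovulated oocytes with 10.3 ng per embryo of MO2-ers2a, a morpholino that blocks translation of the estrogen receptor beta2 transcript (ers2a in the labels), or with the same amount of a control morpholino, MO-control. A morpholino is a synthetic antisense oligonucleotide. Injected embryos were raised in fish water until 8 or 48 hours after fertilization (hpf), and their total RNA was hybridised to Agilent 2-colour arrays with MO2-ers2a RNA in Cy5 and MO-control RNA in Cy3. Each time had 1 array, without replicate or dye swap, so the difference between MO2-ers2a and MO-control embryos has no replicate check, and no test was made.

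How many embryos went into each RNA sample, and from which clutches, is not stated in the labels. RNA came from whole embryos, so fewer cells of a type and less RNA per cell cannot be told apart. All values below are log2 ratios of MO2-ers2a over MO-control unless a level or a signal is named, and a positive value stands for a higher level in MO2-ers2a embryos. A gene was called at 2-fold or more, a rule of size. A spot counted as measured when it was above background in both channels, which held for 44.4% of 43839 spots at 8 hpf and 47.9% at 48 hpf. Of 10 genes of the hatching period, 2 were measured at 8 hpf and 8 at 48 hpf, which goes with the labels. Of 10 gastrula genes, 8 were measured at 8 hpf and 6 still at 48 hpf, so the count of measured genes separated the stages little. Their levels (normalized log2 intensity) in MO-control embryos did so more, as all 6 were lower at 48 than at 8 hpf. The largest difference was that of noto, from 13.47 to 7.08, and the smallest that of gsc, from 13.4 to 12.12. These levels also go with the labels. The targeted receptor, esr2a under its current name, was too dim to measure at either time. Its 2 spots had background-subtracted Cy5 signals of 14.5 to 18 at 8 hpf and 17.5 to 29 at 48 hpf, and Cy3 signals of 34.5 to 38 and 38 to 50, so they are no check of the labels.

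Of the 50 genes, 49 were measured at 8 hpf (81 spots) and 47 at 48 hpf (78 spots). The missing ones are mcm9, a helicase relative that acts in DNA repair, at both times, and at 48 hpf also ccna1 and mcm3l. At 8 hpf mcm9 was above background in Cy5 only, with signals of 49 in Cy5 and 44 in Cy3 on its 1 spot. The lower bound on its ratio, 1.02-fold, is too close to equal to give mcm9 a direction. At 48 hpf its signals, and those of ccna1 and mcm3l, were not well above background in either channel. The genes were brighter than most: on the log2 intensity scale their median level was 11.9 at 8 hpf and 11.1 at 48 hpf, against 9.10 and 8.89 for all measured genes. Spots of the same gene had a pooled SD of 0.25 at 8 hpf and 0.28 at 48 hpf, against 0.31 and 0.23 over all genes. Among genes with at least 2 measured spots, the spots lay on the same side of 0 for 14 of 23 at 8 hpf and 12 of 22 at 48 hpf. This spread is within an array, between spots that may be repeats of a probe or different probes. It says nothing of the spread between embryos.

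The cell cycle and replication genes as a whole stood close to equal in MO2-ers2a and MO-control embryos at both times. Their median was -0.02 at 8 hpf, with 24 above and 25 below 0, and 0.03 at 48 hpf, with 26 above and 21 below 0. The median of all measured genes was -0.02 at both times. At 8 hpf 0 of 49 genes were 2-fold higher, where 2.32% of all genes were, and 1 (2.04%) was 2-fold lower, where 2.27% of all genes were. At 48 hpf 1 of 47 (2.13%) was 2-fold higher, against 1.29% of all genes, and 0 were 2-fold lower, against 1.28%. These counts of 0 and 1 lie near the background shares.

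At 1.5-fold a few more genes were called. At 8 hpf 3 of 49 genes (6.12%) were higher, namely cdc42l, gmnn and mcm7, against 7.45% of all genes. Another 3 (6.12%) were lower, namely ccna1, rfc3 and orc5l, against 8.03%. At 48 hpf 4 of 47 (8.51%) were higher, namely gmnn, ccnd1, cdc123 and plk3, against 5.66%, and 1 (2.13%), cdk5, was lower, against 6.91%. Among spots with both channels at least 4 times the detection limit, 0 of 43 genes at 8 hpf and 1 of 42 at 48 hpf were past 2-fold in either direction, where 4.96% and 2.94% of all genes were.

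**Figure D1:**
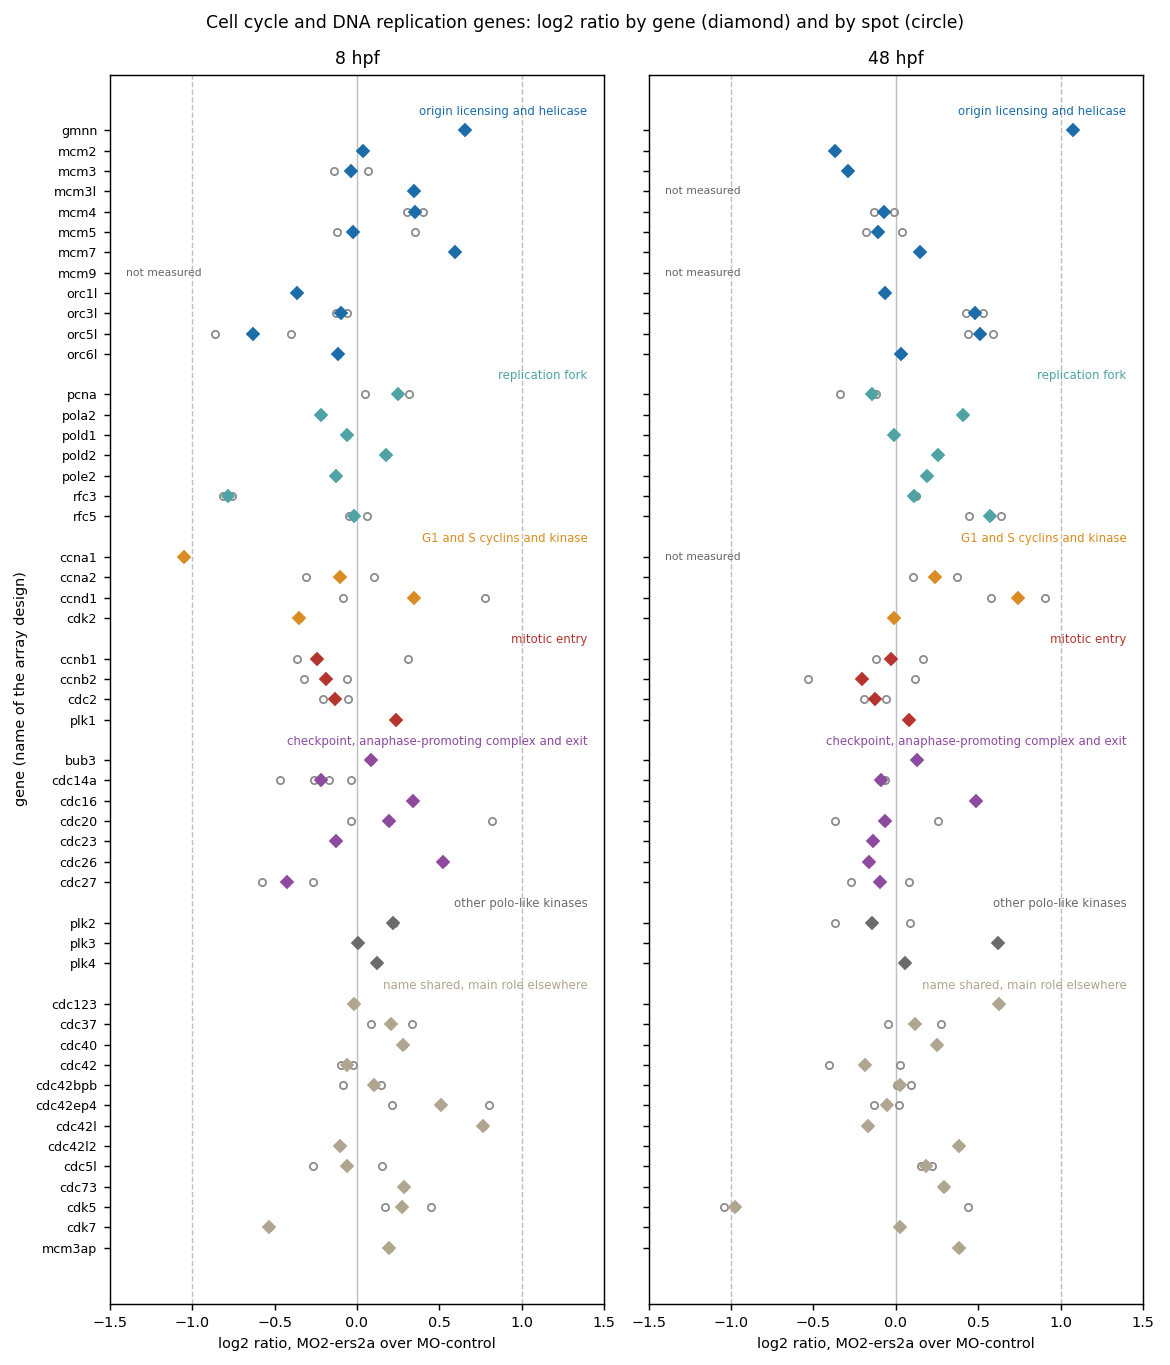
Log2 ratio of MO2-ers2a over MO-control for each of the 50 genes at 8 hpf (left) and 48 hpf (right). Diamonds are genes (median over measured spots, coloured by role), open circles are single spots where a gene has several, and dashed lines mark 2-fold. Most genes lie within 0.5 of 0, and ccna1 at 8 hpf and gmnn at 48 hpf are the ones past 2-fold.

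**Figure D2:**
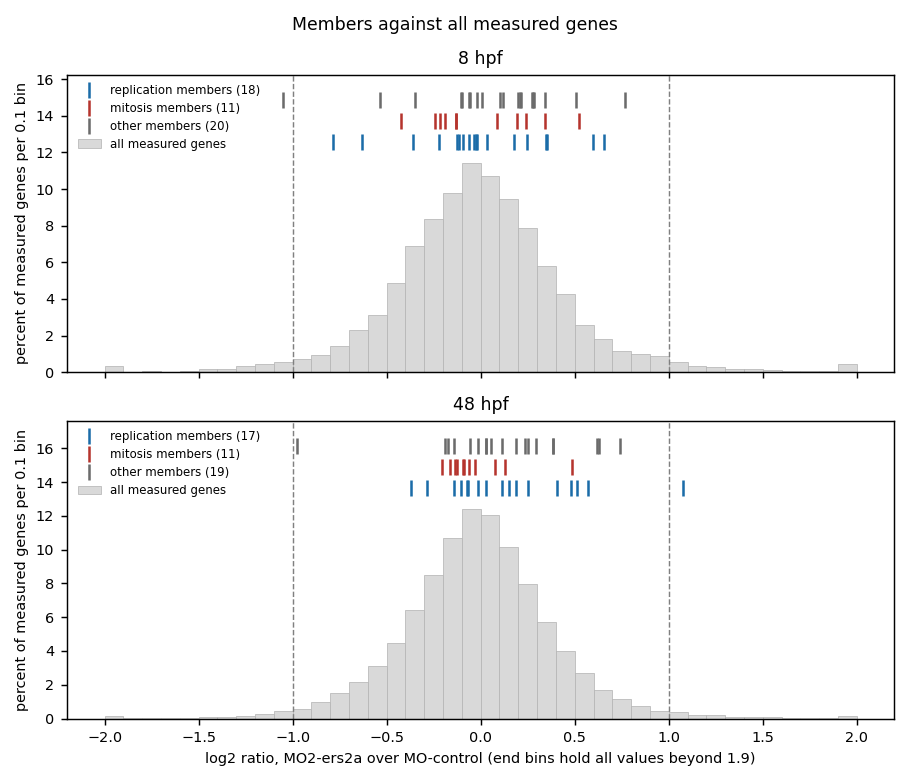
Log2 ratios of all measured genes (grey bars, percent of genes per bin of 0.1) and of the cell cycle and replication genes (ticks: 18 replication, 11 mitosis and 20 other genes at 8 hpf, and 17, 11 and 19 at 48 hpf). Dashed lines mark 2-fold, and the ticks lie across the middle of the grey distribution at both times.

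Replication was taken as the 19 genes of origin licensing, the helicase and the fork, and mitosis as the 11 genes of mitotic entry, checkpoint and exit. The replication genes had a median of -0.03 at 8 hpf (7 above and 11 below 0 of 18) and 0.11 at 48 hpf (10 above and 7 below 0 of 17). The mitosis genes had a median of -0.13 at 8 hpf (5 above and 6 below 0) and -0.09 at 48 hpf (3 above and 8 below 0). The sign of these medians depended on the scaling of the array. Centring on the median without loess gave 0.12 for replication and 0.12 for mitosis at 8 hpf, and 0.30 and 0.08 at 48 hpf. Centring on spike-in spots, which also left out loess here and below, gave -0.45 and -0.44 at 8 hpf, and 0.24 and 0.02 at 48 hpf, and moved the median of all genes to -0.59 at 8 hpf and -0.08 at 48 hpf. Relative to all genes under spike-in centring, both groups at 8 hpf were thus above the median gene. This repeats the median-centring result, since the 2 settings without loess differ only by a constant for each array. After loess the medians of -0.03 and -0.13 at 8 hpf lay below the -0.02 of all genes. The replication median at 48 hpf was above 0 under all 8 other settings of the signals and of the summary over spots.

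Geminin, the inhibitor of origin licensing, was the gene with the highest ratio at 48 hpf and the 1 gene past 2-fold there. Its single spot gave, at 8 hpf, background-subtracted signals of 15430 for Cy5 and 4491.5 for Cy3, and 1394.5 and 392 at 48 hpf. Cy5 signals ran above Cy3 signals for nearly all of these genes before normalization, so signals of the 2 dyes are not a ratio of RNA. After loess, gmnn stood at 0.66 at 8 hpf (1.58-fold) and 1.08 at 48 hpf (2.11-fold). It was higher in MO2-ers2a embryos on both arrays under every setting tried, from 0.33 to 0.89 at 8 hpf and from 1.08 to 1.17 at 48 hpf, and the lower end at 8 hpf came from spike-in centring. With a single spot, the settings of the dim-spot filter and of the summary over spots returned the same value. The others used the same spot in the same dye orientation, so the settings are no independent check of gmnn. The authors' deposited log ratios gave 0.75 and 1.15.

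Of the helicase subunits, mcm2, mcm3, mcm4, mcm5 and mcm7 were measured, and mcm6 was not analysed here. They unwind DNA at the fork as one ring. At 8 hpf mcm7 stood at 0.60 and mcm4 at 0.35 (2 spots, 0.30 and 0.40). Next to them mcm2 was at 0.04, mcm5 at -0.03 (3 spots, -0.12 to 0.35) and mcm3 at -0.04 (2 spots, -0.14 and 0.07). At 48 hpf mcm7 stood at 0.15, mcm4 at -0.07, mcm5 at -0.11, mcm3 at -0.29 and mcm2 at -0.37. The 5 subunits thus had a median of 0.04 at 8 hpf and -0.11 at 48 hpf, and only the mcm7 ratio at 8 hpf was past 1.5-fold. The authors' values put mcm7 at 0.42 at 8 hpf and median centring without loess put it at 1.01. This spot was very bright, with 163998 in Cy5 and 44054 in Cy3. mcm3l, named as a relative of mcm3, stood at 0.35 at 8 hpf.

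The origin recognition complex, which marks the start sites, had, for the subunits found by name, a median below that of all genes at 8 hpf and above it at 48 hpf. At 8 hpf orc5l stood at -0.63, orc1l at -0.36, orc6l at -0.12 and orc3l at -0.09, all 4 below 0. At 48 hpf orc5l stood at 0.51 and orc3l at 0.48, while orc6l at 0.03 and orc1l at -0.06 were close to 0. The medians of -0.24 and 0.25 kept their signs under the 8 other settings, and ran from -0.65 to -0.09 at 8 hpf. Single subunits did not all do so. Under median centring without loess, orc3l stood at 0.09 and orc6l at 0.13 at 8 hpf, above 0. This group and that of the helicase subunits were formed after their values were seen, and so describe these arrays only.

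Of the subunits found by name, orc5l had the largest difference between times, 1.14, and its value at 8 hpf was uncertain in size. It was the lowest of them at 8 hpf and the highest at 48 hpf, so its exact size does not set these medians. One of its 2 spots gave 1029 in Cy5 and 963.5 in Cy3 at 8 hpf, a log2 ratio of -0.86. The other gave 36.5 and 70, just over the detection limits of 24.4 and 59.9, and stood at -0.40. At 48 hpf the same spots gave 0.59 and 0.44. The authors' values were -1.36 at 8 hpf, past 2-fold, and 0.55 at 48 hpf. Of the other subunits, orc2 and orc4 are on the array under names that the pattern does not match. They stood at 0.35 and 0.39 at 8 hpf, and at 0.55 and 0.28 at 48 hpf. After loess, 4 of the 6 subunits thus lay below 0 at 8 hpf and 5 of 6 above 0 at 48 hpf. Without loess fewer lay below 0 at 8 hpf under median centring. The kinase cdc7, which fires licensed origins, stood at 0.09 and 0.15 under its own older array name. mcm10, which joins the helicase as it fires, stood at -0.06 and -0.11.

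At the replication fork, the 7 genes had a median of -0.06 at 8 hpf (2 above and 5 below 0) and 0.19 at 48 hpf (5 above and 2 below 0). The lowest at 8 hpf was rfc3, a subunit of the clamp loader, at -0.78 (1.72-fold lower), with both spots close together at -0.81 and -0.76. Its signals there were 5062.2 in Cy5 and 4136.5 in Cy3. At 48 hpf rfc3 stood at 0.11, and its spots at 0.10 and 0.12. Across the other settings rfc3 ran from -1.16 to -0.59 at 8 hpf. The value past 2-fold came from spike-in centring, which put the median of all genes at -0.59. Another clamp loader subunit, rfc5, stood at -0.02 at 8 hpf and 0.57 at 48 hpf, where its 3 spots gave 0.45 to 0.64.

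PCNA, the sliding clamp and a common marker of dividing cells, stood at 0.25 at 8 hpf (3 spots, 0.05 to 0.32) and -0.14 at 48 hpf (3 spots, -0.34 to -0.12). The spots lay on 1 side of 0 at each time. Under spike-in centring the value at 8 hpf was -0.17, where the median of all genes was -0.59. Among polymerase subunits, pola2, of the polymerase that starts new strands, stood at -0.22 and 0.41. pold1, the catalytic subunit of polymerase delta, stood at -0.06 and -0.01, and its partner pold2 at 0.18 and 0.25. pole2, of polymerase epsilon, stood at -0.13 and 0.19. Under updated names, pold3 stood at 0.56 and 0.50, pole3 at 0.07 and -0.01, rfc1 at -0.14 and 0.08, and rfc2 at -0.07 and 0.41. pole4 was measured at 48 hpf only, at -0.90, where the authors' deposited value was -2.29. That value rests on 1 dim spot and is uncertain in size. Its MO-control level was 7.30 on the log2 intensity scale, against a median level of 8.89 for all measured genes.

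The 4 genes of G1 and S phase, 3 cyclins and a kinase, had a median of -0.23 at 8 hpf and, over the 3 measured, 0.24 at 48 hpf. The lowest value came from ccna1, a cyclin A known mainly from the germ line. At 8 hpf its single dim spot gave 140 in Cy5 and 212 in Cy3 and a log2 ratio of -1.05 (2.07-fold lower). The authors' value was -1.45, and the other settings ran from -1.73 to -1.05. The spot was too dim for the stricter filter on both channels. At 48 hpf it gave 9 and 30 after background subtraction, under the detection limits of 27.7 and 70.1. The somatic cyclin A, ccna2, stood at -0.10 at 8 hpf and 0.24 at 48 hpf.

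Cyclin D1 (ccnd1), which starts the cycle in answer to growth signals, stood at 0.34 at 8 hpf, but its 2 spots gave 0.78 and -0.09. At 48 hpf it stood at 0.74 (1.67-fold higher), with spots at 0.91 and 0.58, both above 0. Its signals at 48 hpf were 4040 in Cy5 and 1252 in Cy3 on the brighter spot and 576.5 and 244 on the other. The kinase of S phase, cdk2, stood at -0.35 and -0.01. Under updated names, ccne1 stood at -0.26 and 0.07, ccne2 at 0.35 and -0.09, and the cyclin D2 gene ccnd2a at 0.01 and 0.54.

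The 4 genes of mitotic entry lay near 0 on both arrays. The master kinase of mitosis, cdc2 (cdk1), stood at -0.13 at both times, with both spots below 0 each time. Its cyclins ccnb1 and ccnb2 stood at -0.24 and -0.19 at 8 hpf, and at -0.03 and -0.21 at 48 hpf. The 3 spots of ccnb1 ran from -0.37 to 0.31 at 8 hpf and those of ccnb2 were -0.53 and 0.12 at 48 hpf. plk1, the polo-like kinase of mitosis, stood at 0.24 and 0.08. The group's median was -0.16 at 8 hpf and -0.08 at 48 hpf, and with median centring without loess it was 0.11 and 0.14. The Aurora kinases, on the array under other names, stood at -0.25 (aurka) and -0.19 (aurkb) at 8 hpf, and at 0.25 and 0.23 at 48 hpf. No value in this paragraph reached 1.5-fold.

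The 7 genes of the checkpoint, the anaphase-promoting complex and mitotic exit had a median of 0.09 at 8 hpf and -0.09 at 48 hpf. Under spike-in centring it was -0.20 at 8 hpf, where the median of all genes was -0.59, and 0.02 at 48 hpf. With median centring it was 0.08 at 48 hpf. Subunits of the anaphase-promoting complex, the ubiquitin ligase that triggers chromosome separation, lay on both sides of 0. At 8 hpf cdc26 stood at 0.52 and cdc16 at 0.34, cdc23 at -0.13 and cdc27 at -0.42 (2 spots, -0.58 and -0.27). At 48 hpf cdc16 stood at 0.48, cdc27 at -0.10, cdc23 at -0.14 and cdc26 at -0.17. The complex's activator cdc20 stood at 0.19 at 8 hpf and -0.06 at 48 hpf, and its 3 spots spread from -0.04 to 0.82 and from -0.37 to 0.26. The checkpoint gene bub3 stood at 0.09 and 0.13. The phosphatase gene cdc14a, with 4 spots, stood at -0.22 (-0.47 to -0.03) and -0.09 (-0.10 to -0.07). Under its own older array name, the checkpoint gene mad2l1 stood at -0.38 and -0.01.

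Of the other polo-like kinases, only plk3 was past 1.5-fold, at 48 hpf. plk3, a stress-responsive kinase, stood at 0.01 at 8 hpf and 0.62 at 48 hpf (1.54-fold higher, 1 spot, with signals of 7300 in Cy5 and 2719 in Cy3). plk4, which starts centriole copying, stood at 0.12 and 0.06, and plk2 at 0.22 and -0.14. The plk2 value at 8 hpf rests on 2 dim spots, with Cy3 signals of 71.5 and 70 against a limit of 59.9. It ran from -0.68 to 0.48 across the other settings. At 48 hpf the plk2 spots gave 0.08 and -0.37.

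The remaining 13 genes share a cdc, cdk or mcm name but are known mainly for other work, and they show what the name rule brings in. Their median was 0.20 at 8 hpf and 0.11 at 48 hpf. cdk5, a kinase that acts mainly in neurons, was the lowest of all the genes at 48 hpf, at -0.98 (1.97-fold lower), from 0.27 at 8 hpf. Of its 3 spots at 48 hpf, 1 gave 254.5 in Cy5 and 378.5 in Cy3 (-0.98), 1 gave 145 and 263.5 (-1.04), and the dimmest gave 144.5 and 82 (0.44). The spots thus disagree in direction, the mean over them was -0.53, and the authors' value was -1.30.

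Among the others, cdc42l, named as a relative of the small GTPase cdc42, stood at 0.77 at 8 hpf (1.70-fold higher) and -0.17 at 48 hpf. With median centring without loess it was 1.03 at 8 hpf. cdc42 itself stood at -0.06 and -0.19, cdc42l2 at -0.10 and 0.38, the effector gene cdc42ep4 at 0.51 and -0.06 and the kinase gene cdc42bpb at 0.10 and 0.03. cdc123, which helps assemble a translation initiation factor, stood at -0.02 and 0.63 (1.54-fold higher at 48 hpf). cdk7, a kinase of both the cell cycle and transcription, was the lowest of this group at 8 hpf, at -0.53, and stood at 0.03 at 48 hpf. The chaperone partner cdc37 stood at 0.21 and 0.11, the splicing factors cdc40 at 0.28 and 0.25 and cdc5l at -0.06 and 0.19, the transcription elongation gene cdc73 at 0.28 and 0.29, and mcm3ap, which acts in mRNA export, at 0.20 and 0.39. At 48 hpf the values of cdc42l2, cdc73 and mcm3ap each rest on 1 dim spot. Their Cy3 signals were 72, 78.5 and 86.5, against a limit of 70.1. Across the other settings these 48 hpf values ran from 0.01 to 0.66, from -0.07 to 0.45 and from 0.08 to 0.57. Leaving the 13 out changed the medians of the rest little, from -0.02 to -0.03 at 8 hpf and from 0.03 to 0.01 at 48 hpf.

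On the 48 hpf array, gmnn and ccnd1 (above 0) and cdk5 (below 0) had the ratios furthest from 0 of these genes. There, markers of neurons and of neural progenitors lay on opposite sides of 0. Of 4 genes of post-mitotic neurons, 3 were measured at 48 hpf, elavl3 at -0.41, stmn2a at -0.67 and elavl4 at -0.78, all below 0, with a median of -0.67. Of 5 genes of neural progenitors, 4 were measured at 48 hpf, sox2 at 0.22, sox19a at 0.46, sox3 at 0.58 and notch1a at 1.29, all above 0, with a median of 0.52. At 8 hpf 0 of the 4 neuron genes were measured, and the 4 progenitor genes had a median of 0.27, with 3 above 0. Their part in the values of gmnn, ccnd1 and cdk5 was not tested.

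Over the 47 genes measured on both arrays, 26 had ratios of the same sign at both times, where 56.6% of all 13288 genes did, so this count lies near the background. The Pearson r across genes was 0.05, against 0.24 over all genes. Without the 13 genes known mainly for other work, r was 0.20 and 20 of 34 genes had the same sign. Genes are not independent replicates, the points of 1 time share an array, and both arrays share the dye orientation. No gene was 4-fold apart between the times (0 of 47, where 0.579% of all genes were). At 2-fold, 2 of 47 were apart, orc5l with a difference of 1.14 and cdk5 with -1.25, where 6.34% of all genes were.

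Within the groups the differences between times ran in different directions. Of all 13288 genes measured on both arrays, 6779 had higher ratios at 48 than at 8 hpf and 6509 had lower ones. All 5 helicase subunits had lower ratios at 48 than at 8 hpf, with a median difference of -0.41 (mcm7 -0.45, mcm4 -0.42, mcm2 -0.41, mcm3 -0.25 and mcm5 -0.08). This held for 4 of 5 with median centring, and under spike-in centring 4 of 5 differences were above 0, where the median difference of all genes was 0.52. All 4 origin recognition subunits found by name had higher ratios at 48 than at 8 hpf, with a median difference of 0.43. Those measured kept that sign under every setting. Of the subunits under older array names, orc2 was also higher at 48 hpf (0.35 and 0.55), but orc4 was lower (0.39 and 0.28). Of 7 fork genes found by name, 6 had higher ratios at 48 hpf, with a median of 0.32, and pcna (-0.39) did not. Fork genes under older array names went both ways: rfc1 and rfc2 were higher at 48 hpf, and pold3 (0.56 and 0.50) and pole3 (0.07 and -0.01) were lower. The mitosis genes had a median difference of 0.01, and 9 of 11 had the same sign at both times, where 56.6% of all genes did. That count depended on the scaling. Under median centring without loess, ccnb1, ccnb2, cdc14a and cdc26 had opposite signs at 8 and 48 hpf. The helicase and origin recognition groups were formed after seeing values, and the pooled SD between spots of 1 gene was 0.25 at 8 hpf and 0.28 at 48 hpf.

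**Figure D3:**
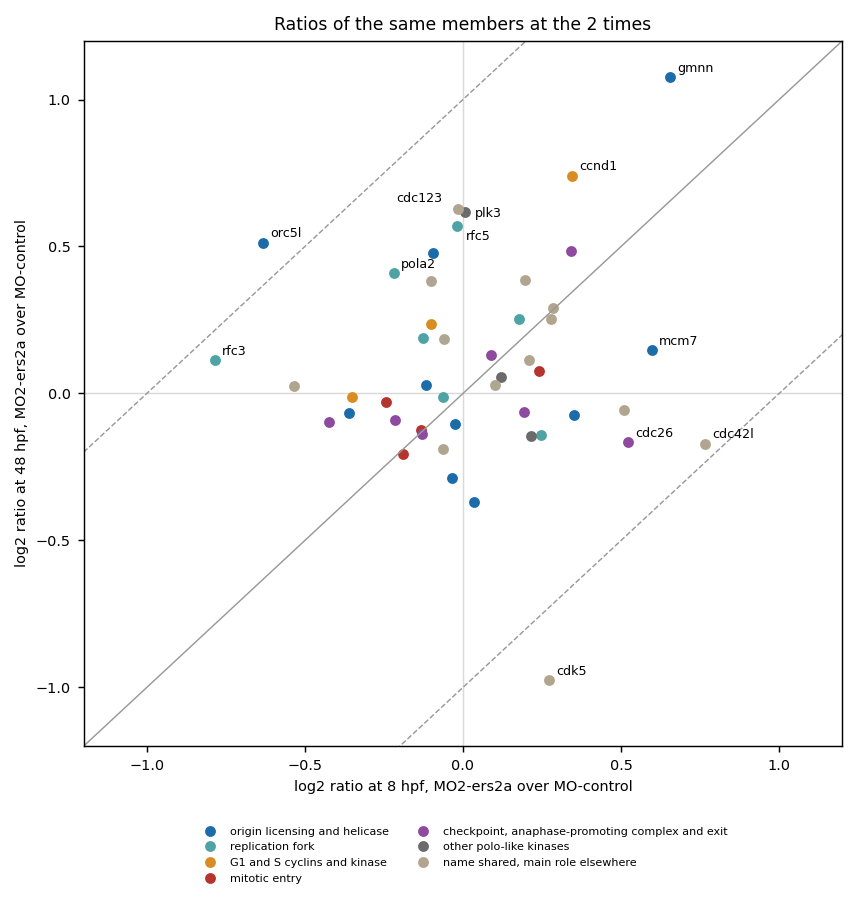
Log2 ratio at 48 hpf (vertical) against 8 hpf (horizontal) for the 47 genes measured on both arrays, coloured by role. The solid line marks equal ratios and the dashed lines a 2-fold difference between times, and orc5l and cdk5 lie outside them.

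Past 2-fold, the levels differed more often between 8 and 48 hpf than between MO2-ers2a and MO-control embryos. This held for all measured genes as well as for these. The first comparison is between arrays and the second within an array. A level is the normalized log2 intensity of 1 channel, and only the same spots are set against each other. In MO-control embryos 18 of 47 genes were at least 2-fold lower at 48 hpf, where 26.6% of all genes were, and 1 of 47 was at least 2-fold higher, where 15.3% of all genes were. In MO2-ers2a embryos 20 of 47 were at least 2-fold lower, where 26.4% of all genes were. The median difference was -0.75 in MO-control embryos and -0.80 in MO2-ers2a embryos, against -0.33 over all genes in both. The values of each time come from 1 array, so array and time cannot be told apart.

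All 11 mitosis genes had lower levels at 48 than at 8 hpf in both kinds of embryo, where 61.7% of all genes in MO-control and 61.4% in MO2-ers2a embryos did. In each kind 7 of 11 were at least 2-fold lower, beside the 26.6% and 26.4% of all genes. Their median difference was -1.24 in MO-control and -1.64 in MO2-ers2a embryos, but these medians fall on different genes, cdc27 and cdc26. Gene by gene, the ratio at 48 hpf minus that at 8 hpf had a median of 0.01, with 6 above and 5 below 0. The 2 medians thus do not show a larger fall in MO2-ers2a embryos. In MO-control embryos ccnb2 went from 13.74 to 10.97 (6.81-fold lower), cdc16 from 9.49 to 7.45 (4.11-fold lower), ccnb1 was 3.50-fold, cdc23 3.40-fold and cdc20 3.33-fold lower. In MO2-ers2a embryos ccnb2 went from 13.55 to 10.77. cdc2 was 1.56-fold lower in MO-control embryos.

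A licensing gene, gmnn, showed the largest difference in level of all the genes, and fork genes showed none past 2-fold. gmnn went from 12.35 to 9.07 in MO-control embryos, 9.71-fold lower, and from 13.01 to 10.15 in MO2-ers2a embryos. Its level at 48 hpf was thus far below that at 8 hpf in both, and less so in MO2-ers2a embryos. orc6l was 5.60-fold, orc1l 4.25-fold and mcm3 3.08-fold lower in MO-control embryos. Of 7 fork genes, 0 were 2-fold lower in either kind of embryo, and pold1 and pold2 were 1.81-fold and 1.47-fold higher at 48 hpf in MO-control embryos. orc5l was 1.45-fold higher there, and in MO2-ers2a embryos it went from 8.07 to 9.75. plk2 was 3.21-fold higher at 48 hpf in MO-control embryos, from spots close to the detection limit at 8 hpf.

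**Figure D4:**
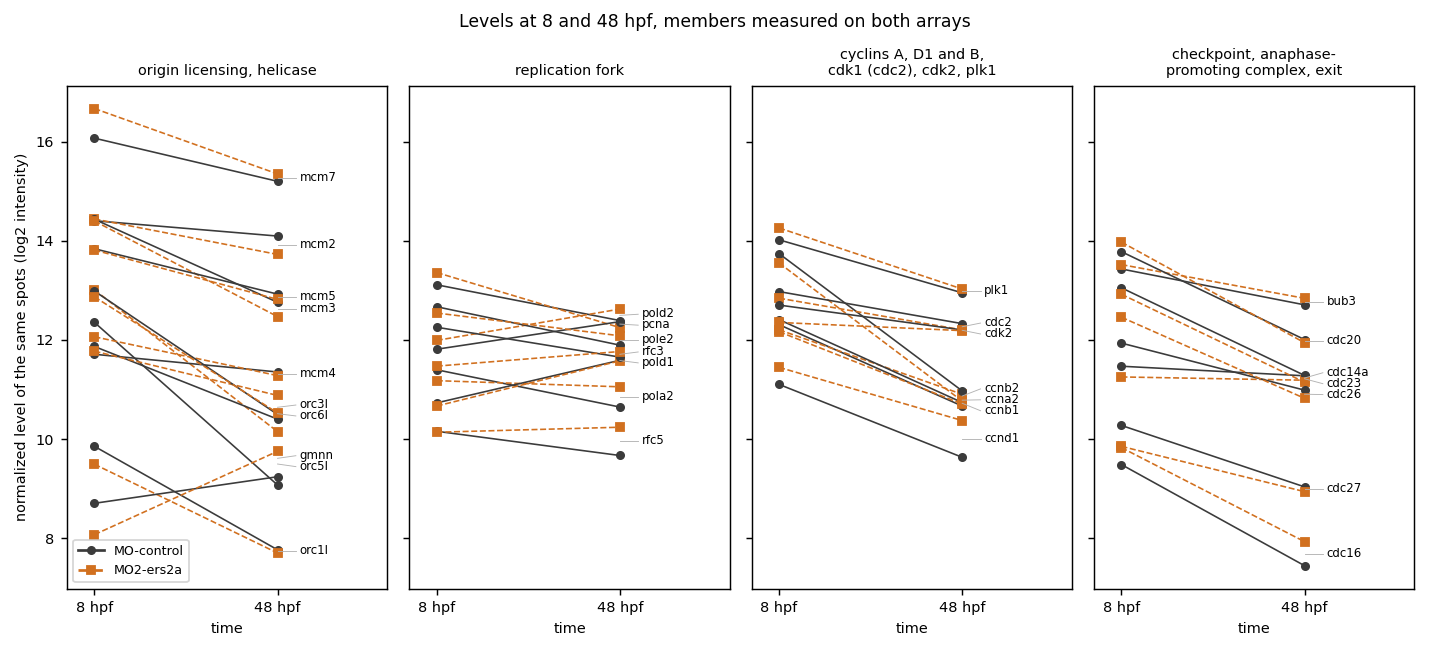
Normalized level (log2 intensity) at 8 and 48 hpf in MO-control (solid lines, circles) and MO2-ers2a embryos (dashed lines, squares) for genes of 5 role groups measured on both arrays, in 4 panels. Lines of different genes are not comparable in height, and most lines go down in both kinds of embryo, the gmnn line of MO-control embryos from 12.35 to 9.07.

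Among other genes of the same pathways, 2 were past 2-fold, ccng1 and mdm2, both at 48 hpf. The list held 109 names, of which 84 are on the array and 81 and 77 were measured at 8 and 48 hpf. Its median was -0.03 at 8 hpf and 0.10 at 48 hpf. At 8 hpf 0 were past 2-fold, where 2.32% of all genes were higher and 2.27% lower. At 1.5-fold 1 was higher and 3 were lower there, where 7.45% and 8.03% of all genes were. At 48 hpf 2 were 2-fold higher and 0 were 2-fold lower, against 1.29% and 1.28% of all genes. At 1.5-fold 5 were higher and 5 lower at 48 hpf, against 5.66% and 6.91%, so these counts lie near the background. The 2 genes called at 48 hpf were the same under the 8 other settings, and ccni was 2-fold lower there by the authors' log ratios, at -1.03. Under spike-in centring, where 3338 of all 15492 genes were 2-fold lower at 8 hpf, 8 of the list were, among them gins2 at -1.29, e2f8 at -1.03 and ube2c at -1.02.

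The cyclin G gene ccng1 stood at 2.24 at 48 hpf, with 3 spots from 2.23 to 2.26. mdm2, which encodes a ubiquitin ligase, stood at 1.55, with spots at 0.99 and 2.10. All spots of both genes were thus above 0. At 8 hpf the same genes stood at -0.04 and -0.22. The authors' values at 48 hpf were 2.26 and 1.73, and across settings ccng1 ran from 2.24 to 2.57. The cell cycle inhibitor gene cdkn1a was not analysed here.

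Of the same list, the highest at 8 hpf were the condensin genes ncapd2 at 0.69 and ncaph at 0.51 and the helicase partner gins4 at 0.55. The lowest were gins2, another helicase partner, at -0.91, the ubiquitin-conjugating enzyme ube2c, which works with the anaphase-promoting complex, at -0.73 (2 spots, -1.17 and -0.29), and the repressor e2f8 at -0.68. gins2 and gins4 thus stood on opposite sides of 0 in the same complex. At 48 hpf the lowest were ccni at -0.93, ccng2 at -0.71 and ube2c at -0.70. The other genes past 1.5-fold at 48 hpf were nuf2 at 0.76, rpa1 at 0.65, chek2 at 0.61, cdkn1bb at -0.62 and rrm2 at -0.60.

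The side of 0 on which a gene or a group median fell depended on the scaling. Under median centring without loess, which left the median of all genes at -0.02, 14 of the 49 genes changed sign at 8 hpf and 11 of 47 at 48 hpf. Under each of the 6 settings other than this and spike-in centring, 0 to 2 did at 8 hpf and 0 to 3 at 48 hpf. Spike-in centring moved all genes together, so changes of sign under it are not counted here.

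**Figure D5:**
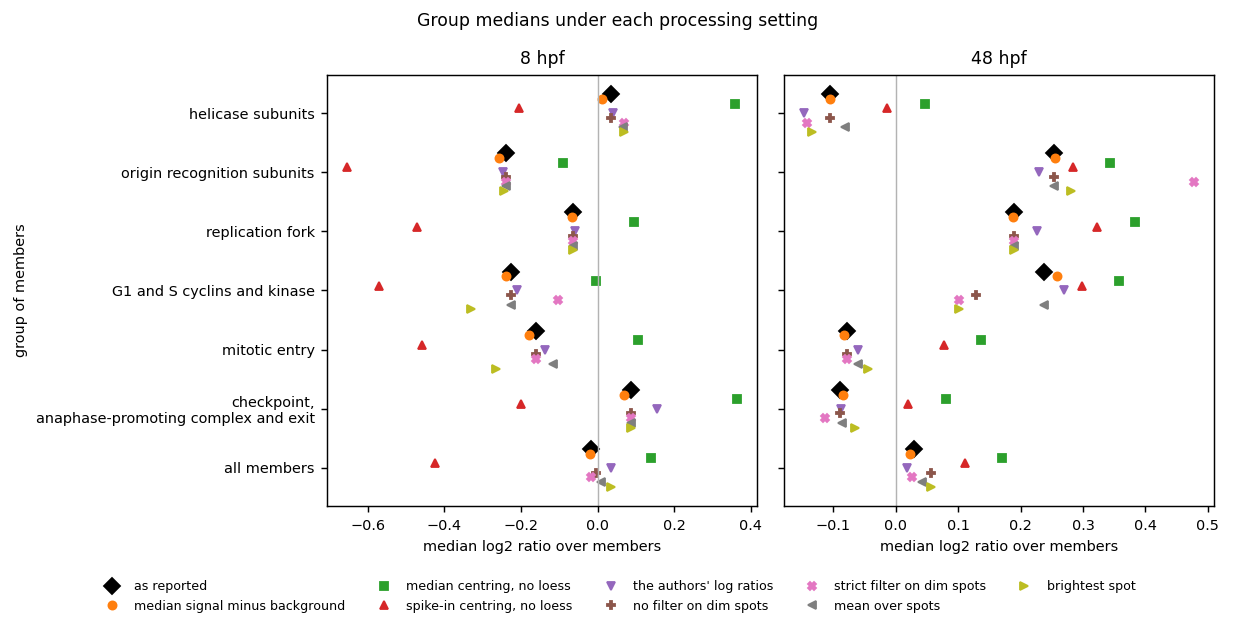
Median log2 ratio of 7 groups of genes (rows) under 9 processing settings (symbols) at 8 hpf (left) and 48 hpf (right), with black diamonds for the values reported. At 8 hpf the spike-in setting lies to the left and median centring to the right for each group. The medians of the origin recognition subunits lie below 0 at 8 hpf and above 0 at 48 hpf under all 9 settings. So do those of the G1 and S cyclins and kinase, but under median centring that median is only -0.005 at 8 hpf. It then covers 4 genes, among them the dim ccna1, which was not measured at 48 hpf. The others stood there at 0.11 (ccna2), 0.51 (ccnd1) and -0.12 (cdk2).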

How the data were processed

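RNA from MO2-ers2a and MO-control embryos was compared on 1 Agilent 2-colour array per time, so the number of arrays limits the precision. The deposited scanner files give intensity per spot, the median signal and median background of each channel, per the file headers. The deposited series matrix holds log10 values, which rose with the raw log2 ratio of Cy5 over Cy3 with slopes of 1.03 and 1.04 (r of 0.981 and 0.983) once put on the log2 scale, so they have the same direction. Their column medians were 0, and 36.8% and 34.7% of spots stood at exactly 0 and were treated as not measured. Per the submitters' processing notes, the software was Agilent Feature Extraction. Its version and how the authors normalized the dyes are not stated there.

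Background correction was by normexp with an offset of 50 in limma 3.58.1 (R 4.3.3), which draws ratios of dim spots towards 0. Ratios were normalized by loess within each array, with control spots at weight 0. Levels were also put on 1 scale between arrays (Aquantile). To be measured, a spot had to lie, in both channels and after background subtraction, more than 2.6 SD over the mean of 153 negative control spots (over 24.4 for Cy5 and 59.9 for Cy3 at 8 hpf, and over 27.7 and 70.1 at 48 hpf). Measured spots of a gene were summarised by their median. Repeated spots of a probe and different probes of a gene were not told apart. Tables and plots were made in Python 3.11.15 (pandas 2.3.3, numpy 2.4.6, matplotlib 3.10.9). The normalization was tried on simulated data with a set dye bias, where the size of the changes had to be recovered for bright spots only. That simulation cannot tell which scaling suits these arrays.

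Calls are rules of size, at 2-fold, and at 4-fold between times. All genes measured could be named. Full values went to genes past those folds, to the 2 highest and 2 lowest of each role group at each time and to a set of core genes, and 3 highest and 3 lowest were named of the other pathway genes. 1 gene of that list is not reported here and enters none of its counts. Names were updated through tables of RefSeq and Ensembl symbols, used for names only. The genes and lists were chosen with earlier results of these data known. Other settings of the background correction, the scaling, the filter on dim spots, the summary over spots, the membership and the fold were tried, and 1 of them, the brightest spot of each gene, was added after seeing the data.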

Additional observations from a re-analysis of the deposited data

Results flagged for a closer look

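Several genes had ratios on opposite sides of 0 at the 2 times and lay at least 2-fold apart. With 1 array per time the difference was not tested for any of them. Among the cell cycle and replication genes, cdk5 had a difference (48 minus 8 hpf) of -1.248 on the log2 scale, with spots that disagree in direction at 48 hpf, and orc5l had 1.145, with 1 of its spots close to the detection limit at 8 hpf. Among the other pathway genes, ccng1 had a difference of 2.28, mdm2 1.768, gins2 1.059 and ccng2 -1.111. The first of these rests on 3 spots, the second on 2 and the last 2 on 1 spot each. Of all 13288 genes measured on both arrays, 6.34% were at least 2-fold apart between times, on the same or opposite sides of 0. Being flagged does not set these genes apart from that share. For 3 of the 6 genes this depended on the scaling. Under spike-in centring without loess, cdk5 stood at -0.29 and -1.05 and ccng2 at -0.05 and -0.62 at 8 and 48 hpf, on the same side of 0 and less than 2-fold apart. That setting put the median of all genes at -0.59 at 8 hpf and -0.08 at 48 hpf. Under median centring without loess, ccng1 stood at 0.22 at 8 hpf, on the same side as its 2.57 at 48 hpf. With the mean over spots the cdk5 difference was -0.82, less than 2-fold. orc5l, mdm2 and gins2 lay on opposite sides of 0 and at least 2-fold apart under all 9 settings. For gins2, with 1 spot, the settings of the dim-spot filter and of the summary over spots returned the same value.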

How the results depend on the processing

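The setting that moved the most values was the scaling. Median centring without loess gave medians of 0.12 (replication) and 0.12 (mitosis) at 8 hpf, 0.30 and 0.080 at 48 hpf, and 2 genes 2-fold higher at 8 hpf. Spike-in centring, also without loess, gave -0.45 and -0.44 at 8 hpf, 0.24 and 0.020 at 48 hpf, and 4 genes 2-fold lower at 8 hpf and 1 at 48 hpf. The authors' log ratios gave 2 genes 2-fold lower at 8 hpf and 1 at 48 hpf. Plain background subtraction gave 1 gene 2-fold lower at 48 hpf, and the stricter filter on dim spots gave 0 at 8 hpf. With the brightest spot of each gene, chosen after seeing the data, the mitosis median at 8 hpf was -0.034. At 1.5-fold, 3 genes were higher and 3 lower at 8 hpf, and 4 and 1 at 48 hpf. The cause of these changes was not tested, other than that a lower fold and a stricter filter change what can be counted. The other values of these medians and counts, under these settings, no filter, the mean over spots, updated names and without the genes of other roles, moved by less than the spread between spots or stayed within 1.5 times.

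Over all genes, the counts 2-fold higher and lower were 360 and 351 at 8 hpf and 217 and 214 at 48 hpf. They were 496 and 610, and 302 and 536, with plain subtraction, 486 and 642, and 286 and 440, with median centring, 129 and 3338, and 242 and 575, with spike-in centring, and 714 and 1043, and 496 and 796, with the authors' values. The stricter filter gave 191 and 264, and 133 and 157. No paired analysis was possible because the result comes from no test and each time has 1 array. Without a dye swap, a dye bias of a gene cannot be told apart from its ratio.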
